A study of Mus musculus with 2 samples.

Results

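Immediate early genes are switched on within minutes of a growth factor, serum or stress signal, without new protein synthesis. Their promoters are read by serum response factor with its ternary complex partners and by CREB, which receive the signal from the ERK and other kinase cascades. Many of their products are transcription factors that pass the signal on, and others destabilise mRNA or limit the response. CHD2 is a chromodomain helicase that remodels nucleosomes and is found mainly at active promoters. The 10 genes described here were Fos and Fosb, the Fos-family subunits of AP-1; Jun, Junb and Jund, the Jun-family subunits; Atf3, a stress-induced factor of the ATF family; Egr1, a zinc-finger transcription factor; Ier2 and Ier3, early response genes; and Zfp36, which binds AU-rich mRNA and triggers its decay. They are 10 of 21531 protein-coding genes with a known strand, and were chosen by name with their CHD2 peak counts in the optimal list at several windows already known. Every count below is therefore a description, and none carries a test.

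An antibody to CHD2 was used for ChIP-seq in the embryonic stem cell line ES-E14, which is male and of mouse strain 129/Ola. There was 1 group of 2 biological replicates, with no treatment or genotype to compare, and the control was not analysed here. The values are peak lists on mm10: an optimal list of 8282 peaks and a conservative list of 7530, both derived from the replicates together, and relaxed lists of 300000 peaks each for replicate 1, replicate 2 and the pool. The relaxed lists hold background as well as peaks, per their descriptions, so only their strongest 20000 peaks were counted. Entries of lower rank, which may be background, are named only with their rank. Median ranks over genes were taken from the whole lists. Peak lists hold no measure of expression, so the cell line's identity could not be checked, and the read depth is unknown. Signal is the authors' own value per peak and is set side by side only within 1 list, whereas ranks are compared between the relaxed lists because these are equally long. Whether these genes were active in the cells when they were fixed was not measured.

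Positions are summits, given as the distance from the outer 5′ end of the RefSeq gene on GRCm38.p6 in the direction of transcription, and from the gene's other end where that is nearer. In the optimal list, 7 of the 10 genes had a summit in the gene body or within 10 kb of it, against 30.4% of all protein-coding genes and 24.7% of the 9893 genes of up to 15 kb. All 10 genes lie in that length class. At 4 of the 10 there were at least 2 such summits, against 8.37% of genes of up to 15 kb. Within 1 kb of the 5′ end, 2 of the 10 (Ier3 and Zfp36) had an optimal summit, against 14.1% of all genes and 12.2% of genes of up to 15 kb, a count near the background. Widening that window to 2.5 kb gave 6 of 10, against 16.2% of all genes. The 4 genes added were Atf3, from upstream, Fosb, from within the gene, and Junb and Ier2, whose summits lay past the gene's end. A window of 5 kb added Egr1, again through summits near the end of the gene, and gave 7 of 10 against 18.3%. These genes are short, between 1199 bp (Ier3) and 13038 bp (Atf3), so a window drawn around the start of Junb or Ier2 covers the whole gene and its downstream flank. Within the gene body alone the count was 2 of 10 (Fosb and Egr1), against 13.7% of all genes and 6.70% of genes of up to 15 kb.

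The counts differed between lists, at these genes and over all genes. In the conservative list 8 of the 10 had a summit in the gene body or within 10 kb, against 28.8% of all genes, and 3 within 1 kb of the 5′ end, against 13.6%. Those 8 include Fos and Jun, which the optimal list lacks, and leave out Jund and Ier3. Among the strongest 20000 peaks all 10 had a summit in the wider window in the pooled list (50.2% of all genes) and in replicate 1 (48.8%), and 9 did in replicate 2 (50.3%). Within 1 kb of the 5′ end the counts were 6 in the pooled list (24.2% of all genes), 5 in replicate 1 (21.2%) and 4 in replicate 2 (23.6%). Of the optimal peaks of above-median signal alone, 4 of the 10 genes kept a summit in the wider window (20.9% of all genes) and 1, Zfp36, at the promoter (10.1%).

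**Figure D1:**
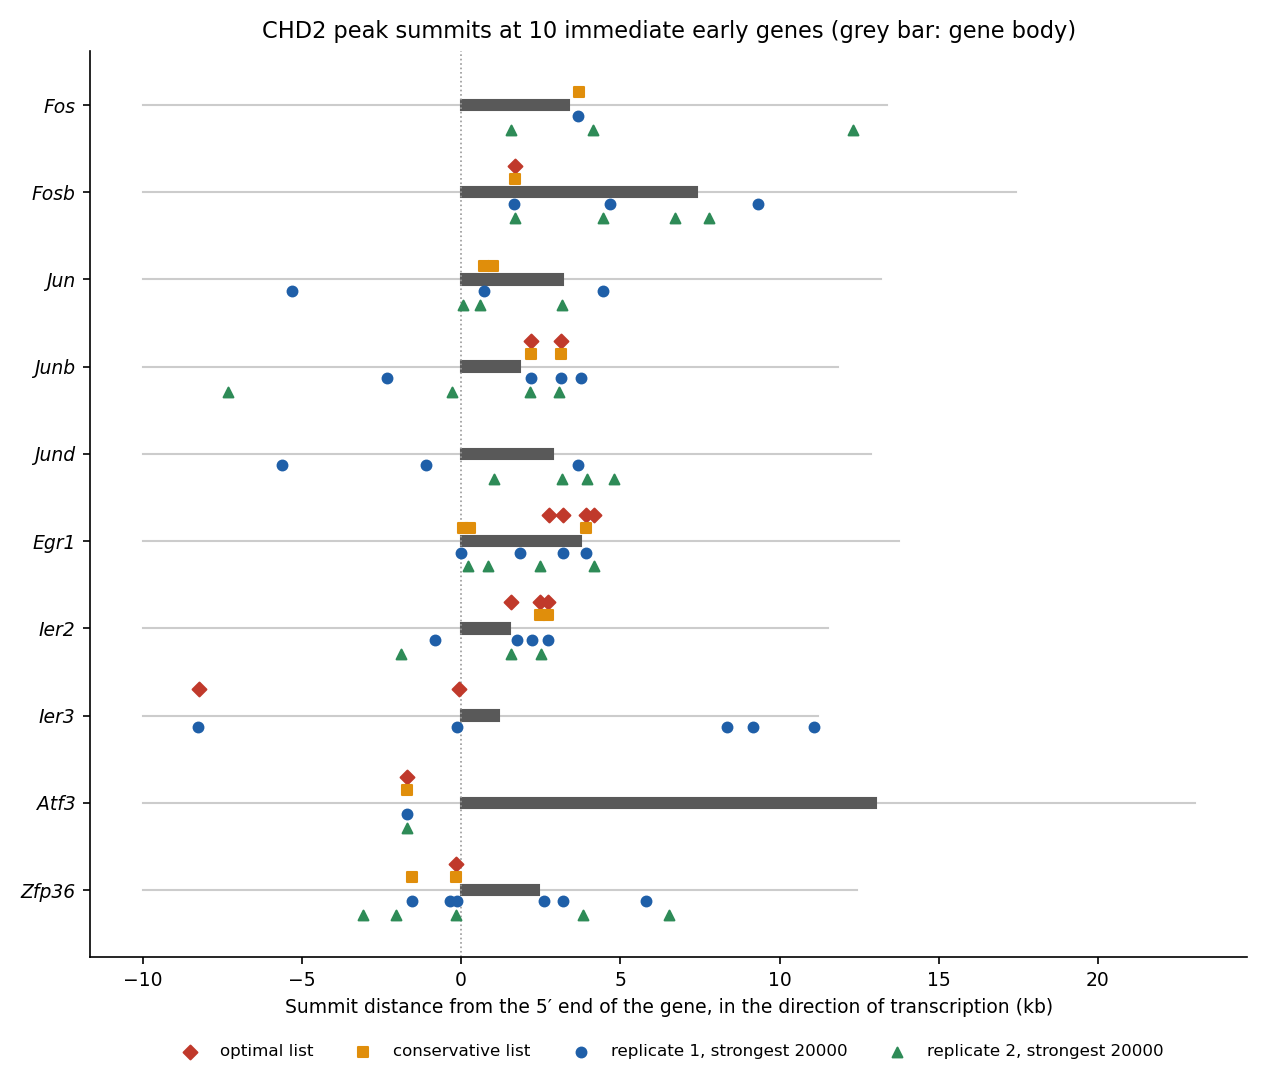
CHD2 summits at the 10 genes. Each row is a gene, the x axis is the summit's distance from the 5′ end in kb in the direction of transcription, the dark bar is the gene body and the thin line the 10 kb on each side; symbols mark the optimal and conservative lists above the bar and the strongest 20000 peaks of each replicate below it. Summits of Egr1, Ier2 and Junb gather at the end of the gene, the optimal summit of Zfp36 is at its start, and Atf3 has 1 position upstream.

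The sequences below are shown because CHD2 summits fell on them in the lists named, or, for Fos, because no summit of the optimal list did. The first 3 are the 250 bases before the RefSeq start of Zfp36 (chr7:28379229-28379478, minus strand), Ier3 (chr17:35821463-35821712, plus strand) and Fos (chr12:85473640-85473889, plus strand) on GRCm38.p6. The last 2 extend 75 bases to each side of a summit of the separate mm9 list, upstream of Atf3 (mm9 chr1:193008830-193008980, minus strand) and past the end of Ier2 (mm9 chr8:87184419-87184569, minus strand). Capitals mark matches to the words searched, which are described further on; the Atf3 and Ier2 windows hold none.
Zfp36 promoter: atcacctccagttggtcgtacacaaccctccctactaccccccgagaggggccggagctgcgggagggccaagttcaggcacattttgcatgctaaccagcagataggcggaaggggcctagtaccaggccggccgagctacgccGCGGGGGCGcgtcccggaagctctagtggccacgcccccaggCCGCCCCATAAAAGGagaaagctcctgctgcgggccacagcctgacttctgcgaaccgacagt
Ier3 promoter: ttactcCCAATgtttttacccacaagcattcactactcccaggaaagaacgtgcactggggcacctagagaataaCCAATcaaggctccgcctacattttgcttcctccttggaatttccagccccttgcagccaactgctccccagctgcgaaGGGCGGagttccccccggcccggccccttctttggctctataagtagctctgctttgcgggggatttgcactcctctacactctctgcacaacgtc
Fos promoter: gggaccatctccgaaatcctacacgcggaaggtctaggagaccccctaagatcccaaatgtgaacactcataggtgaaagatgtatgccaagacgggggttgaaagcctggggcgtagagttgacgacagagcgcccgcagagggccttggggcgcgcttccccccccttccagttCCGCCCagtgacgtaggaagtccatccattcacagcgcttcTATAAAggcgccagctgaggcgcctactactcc
Atf3 upstream summit: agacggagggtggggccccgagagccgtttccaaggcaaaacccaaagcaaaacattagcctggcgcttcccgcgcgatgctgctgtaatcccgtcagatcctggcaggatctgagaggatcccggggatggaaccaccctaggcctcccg
Ier2 downstream summit: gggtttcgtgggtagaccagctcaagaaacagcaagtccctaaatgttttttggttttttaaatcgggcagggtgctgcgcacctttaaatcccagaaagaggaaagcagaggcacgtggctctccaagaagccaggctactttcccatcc

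Fos, whose protein pairs with Jun proteins to form AP-1, had no optimal peak in the gene or within 10 kb. The gene lies at chr12:85473890-85477274 on the plus strand. Its 1 conservative peak, chr12:85477413-85477772, had a signal of 18.2 (pooled rank 10026) and a summit 319 bp past the gene's end. Replicate 1 had an overlapping peak of signal 13.9 at rank 5432, and replicate 2 had none there. Replicate 2's strongest peak at Fos lay 748 bp past the end, with a signal of 12.1 at rank 7588. The replicates thus both put their strongest Fos peak downstream of the gene, at places that did not overlap. The pooled list also had a summit 748 bp past the end, with a signal of 17.1 at rank 11470. There replicate 1 had a weaker overlapping peak, with a signal of 8.05 at rank 20320. At the promoter, the pooled list had a summit at −377 (signal 16.0, rank 13276), while the best summits within 1 kb of the 5′ end ranked 61963 in replicate 1 (at −385) and 27436 in replicate 2 (at +159). Neither of those is within the strongest 20000 peaks of its replicate.

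Fosb, the close relative of Fos, had 1 optimal peak, chr7:19308234-19308593, with a signal of 28.0 (rank 4491). The gene runs from chr7:19302696 to 19310118 on the minus strand, so the summit lay 1704 bp inside it. That peak ranked 10381 in replicate 1 (signal 10.1) and 2650 in replicate 2 (signal 21.6). Both replicates had it among their strongest 20000 peaks, with summits no more than 100 bp apart. Neither replicate had a Fosb summit of that rank within 1 kb of the 5′ end, where the best ranked 127218 in replicate 1 and 23430 in replicate 2.

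Jun, the founding Jun-family member, also had no optimal peak, although it lies at chr4:95049036-95052222 with peaks in every relaxed list. Its stronger conservative peak, chr4:95051337-95051696, had a signal of 20.6 (pooled rank 7997) and a summit 705 bp inside the gene. It ranked 2731 in replicate 1 (signal 21.0) and 16866 in replicate 2 (signal 8.42). Replicate 2 instead had its strongest Jun peak 24 bp before the gene's end, with a signal of 19.5 at rank 3133. The peak of replicate 1 overlapping that place had a signal of 4.17 and ranked 212924. Of the 2 positions in Jun, then, each was strong in 1 replicate and weaker in the other.

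Junb, an AP-1 subunit that activates transcription more weakly than Jun at many targets, had 2 optimal peaks, both past its end. The gene covers chr8:84976909-84978748 on the minus strand. The peak chr8:84975435-84975794 had a signal of 27.0 (rank 4733), lay 1294 bp past the end, and ranked 5714 in replicate 1 and 5096 in replicate 2. The peak chr8:84976374-84976733 had a signal of 26.6 (rank 4821), lay 355 bp past the end, and ranked 5501 and 8710. Both Junb positions recurred in both replicates. The first of them lies 804 bp from Prdx2, a gene for a peroxide-reducing enzyme, although the nearest protein-coding 5′ end is that of Junb itself. Around the start, the pooled list had a summit at −302 (signal 18.3, rank 9999), which ranked 16068 in replicate 2 and 55251 in replicate 1. Replicate 2's strongest peak in the window of Junb was at none of these places but at −7332, with a signal of 16.7 at rank 4093, and lay nearer to the 5′ end of Hook2, a gene for a microtubule-linked protein. That peak gives Junb its rank for replicate 2 in the order of genes below.

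Jund, the Jun-family member that is expressed more constantly than the others, had no optimal or conservative peak around chr8:70697739-70700616. Its strongest pooled peak had a signal of 21.8 (rank 7219) at 1015 bp inside the gene. Replicate 2 had that peak at rank 2791 (signal 21.0), and replicate 1 had no peak overlapping it. Replicate 1's strongest Jund peak was elsewhere, at −5631, with a signal of 10.7 at rank 9132. In GENCODE M1 on mm9, a Jund transcript starts 1219 bp inside the gene, so the distance from the outer 5′ end is not the distance from every start. Peaks past the end of Jund lay in or beside Iqcn, whose 5′ end is nearer to them than that of Jund.

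Egr1, a zinc-finger factor that binds GC-rich sites, carried the most optimal peaks of the 10 genes. The gene runs from chr18:34861207 to 34864956 on the plus strand. The strongest, chr18:34864959-34865318, had a signal of 48.3 (rank 2070) and a summit 183 bp past the end, and its neighbour, chr18:34865210-34865569, had 37.4 (rank 2937) at 434 bp past the end. These 2 peaks overlap each other and were joined to the same replicate peaks, at rank 1458 in replicate 1 (signal 32.1) and rank 1423 in replicate 2 (signal 33.3). Those replicate peaks overlap, but their summits lay 164 bp past the end in replicate 1 and 433 bp past it in replicate 2. Among the genes' strongest peaks, the replicates' ranks lay closest together at Egr1. The other optimal peaks lay inside the gene, with signals of 20.0 and 8.34, at −543 and −994 relative to the gene's end. In replicate 2 the weaker was overlapped by a peak of rank 3195, but that peak's summit lay elsewhere, at −1263. In replicate 1 the overlapping peak ranked 135200. At the promoter, a peak at +64 was in the conservative list but not in the optimal one, with a signal of 23.0 (pooled rank 6572), at rank 5823 in replicate 1 and 9309 in replicate 2. Its signal was above those of 2 Egr1 peaks that the optimal list did hold.

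Ier2, a nuclear protein of the early response, had 3 optimal peaks, all past the end of the gene at chr8:84661331-84662852 on the minus strand. The strongest, chr8:84659936-84660295, had a signal of 32.9 (rank 3548) at 1215 bp past the end, and ranked 2780 in replicate 1 and 5416 in replicate 2. A second, chr8:84661104-84661463, had 32.2 (rank 3666) at 47 bp past the end, and ranked 12598 in replicate 1 and 2898 in replicate 2. The third overlapped the first and had 25.9 (rank 5003). Peaks of the replicates overlapped at these 2 places, but their summits were over 100 bp apart. They lay 1218 and 232 bp past the end in replicate 1, and 980 and 47 bp past it in replicate 2. The replicates also differed on which place was stronger. Near the start of Ier2, the best pooled summit within 1 kb ranked 206936, although replicate 1 had one at −822 ranked 16653.

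Ier3, a stress-induced survival factor, had 2 optimal peaks that rested on replicate 1. The gene is at chr17:35821713-35822911 on the plus strand. The peak at the promoter, chr17:35821467-35821826, had a signal of 18.2 (rank 7089) and a summit at −66. It ranked 7788 in replicate 1 (signal 11.5), and replicate 2 had no overlapping peak. The other, at −8236, had a signal of 21.6 (rank 6237), and ranked 9118 in replicate 1 (signal 10.7) and 32575 in replicate 2 (signal 6.52). Ier3 was the 1 gene of the 10 with no summit among the strongest 20000 of replicate 2, and it had no conservative peak. Its remaining peaks in replicate 1 lay over 7 kb past the end, nearer to the 5′ ends of Flot1 and Tubb5.

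Atf3, a repressor and activator of stress genes, had the strongest peak of the 10 genes in the optimal, conservative, pooled and replicate 1 lists, but not in replicate 2, where 7 of the others ranked above it. It was the gene's only peak in each list, counting the strongest 20000 of the relaxed ones. The peak, chr1:191184843-191185202, had a signal of 71.1 (rank 1266) and a summit at −1690 from the 5′ end of the gene, which covers chr1:191170296-191183333 on the minus strand. It ranked 687 in replicate 1 (signal 57.4) and 5539 in replicate 2 (signal 14.2). Both replicates placed the summit within 100 bp of each other. No list had a summit within 1 kb of the outer 5′ end among its strongest 20000 peaks, and replicate 2's best there ranked 110805.

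Zfp36, which encodes tristetraprolin and shortens the life of cytokine and early response mRNAs, was the 1 gene of the 10 whose promoter peak was in both the optimal and the conservative list. The peak, chr7:28379210-28379569, had a signal of 41.6 (rank 2540) and a summit at −162 from the start of the gene, which covers chr7:28376784-28379228. It ranked 2407 in replicate 1 (signal 22.8) and 4270 in replicate 2 (signal 16.3), with summits no more than 100 bp apart. A weaker conservative peak lay at −1535, with a signal of 12.8. Each replicate also had peaks past the gene's end among its strongest 20000. Those 167 and 759 bp past it in replicate 1 lay nearest to the 5′ end of Zfp36 itself. The others lay nearer to that of Plekhg2, a guanine nucleotide exchange factor gene.

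Ordered by the rank of the strongest pooled peak, the genes ran Atf3 (1268), Egr1 (2079), Zfp36 (2556), Ier2 (3627), Fosb (4692), Junb (4997), Jund (7219), Ier3 (7352), Jun (7997) and Fos (10026). Of the 9 neighbouring pairs in this order, 2 kept it in both replicates: Egr1 above Zfp36, and Jun above Fos. Another 6 pairs kept it in 1 replicate only, and Ier3 and Jun stood the other way round in both. Most neighbours were thus not separated beyond the difference between replicates. The replicates' strongest peaks also lay at different places at Fos, Jun, Junb, Jund, Ier2 and Ier3. The median rank over the 10 genes was 4844.5 in the pooled list, against 19785 over all protein-coding genes and 37060 over genes of up to 15 kb, with genes that had no peak ranked last. In replicate 1 the medians were 4106 for the 10 genes and 21058 for all genes, and in replicate 2 they were 3613 and 19665.

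**Figure D2:**
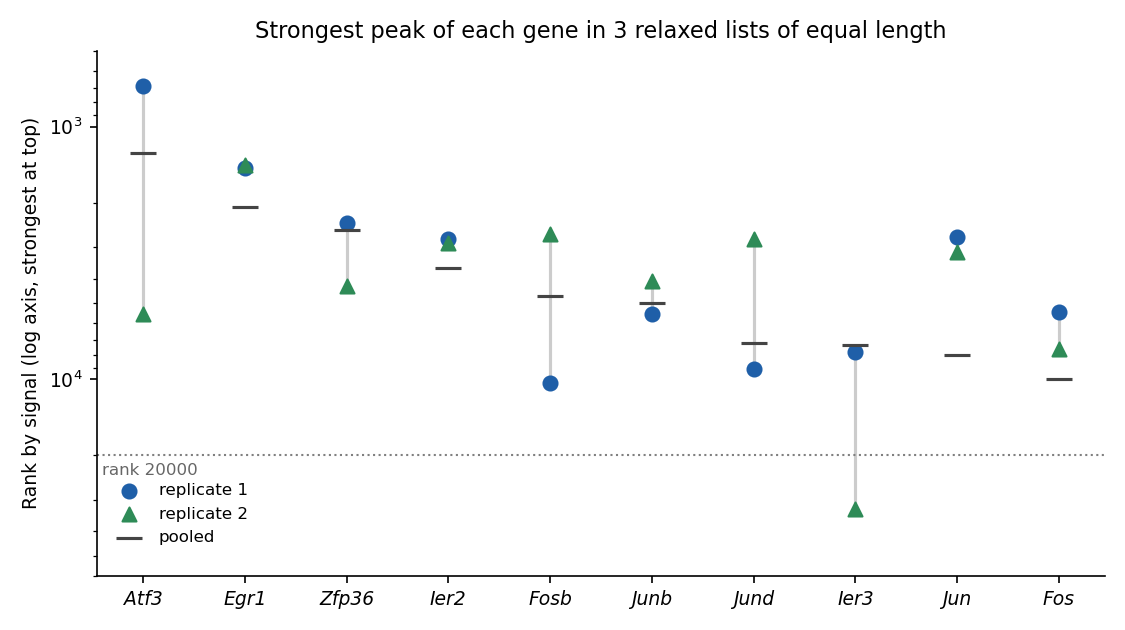
Rank by signal of the strongest peak in the gene body or within 10 kb, for each of the 10 genes, on a log axis with the strongest at the top; circles are replicate 1, triangles replicate 2 and dashes the pooled list, and grey lines join the replicates. The joined ranks are of each replicate's own strongest peak, not always at the same place. Egr1 and Ier2 have nearly the same rank in both replicates, at Ier2 from peaks 1218 and 47 bp past the gene's end. Atf3 and Fosb, with summits no more than 100 bp apart, and Jund and Ier3 have ranks far apart. Ier3 falls past rank 20000 in replicate 2.

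Across the replicates, 9 of the 10 genes had a summit among the strongest 20000 peaks of both, in the gene body or within 10 kb, against 39.3% of all genes. For 8 of the 10 (all but Fos and Ier3) a peak of replicate 1 overlapped one of replicate 2, against 30.9% of all genes. At Fos the replicate 1 peak that overlapped replicate 2's strongest fell outside the limit, at rank 20320. At Ier3 a replicate 1 peak was overlapped by a replicate 2 peak of rank 4398, whose summit lay outside the window. With summits required to lie within 100 bp of each other the count was 4 of 10 (Atf3, Fosb, Junb and Zfp36), against 27.1% of all genes. Of the 14 optimal peaks at these genes, 10 overlapped one of the strongest 20000 peaks in both replicates, against 75.8% of all optimal peaks. Their median signal was 27.5, against 29.6 for the whole optimal list. The limit of 20000 fell at a signal of 13.4 in the pooled list, 8.09 in replicate 1 and 7.87 in replicate 2. Just inside it were the Jun peak past the gene's end in replicate 1 (8.13, rank 19720) and a Fosb peak in replicate 2 (7.91, rank 19710). Just outside were a peak of replicate 1 past the end of Fos (8.05, rank 20320) and one of replicate 2 past the end of Zfp36 (7.49, rank 22652).

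The region around the gene's end was then described for all genes in the same way: from 500 bp before the end to 2 kb after it, and over 1 kb from the 5′ end. This region was drawn after the positions above had been seen. In the optimal list 3 of the 10 genes had a summit there (Egr1, Ier2 and Junb), against 2.53% of all genes and 3.41% of genes of up to 15 kb. In the conservative list 4 of 10 did, with Fos added, against 2.29% of all genes, and in the strongest 20000 pooled peaks 7 of 10 did, against 5.89%. Among the strongest 20000 peaks, 8 of 10 did in replicate 1, against 5.04% of all genes, and 8 of 10 in replicate 2, against 6.50%. The strongest optimal peak lay nearer to the gene's end than to its start at 3 of the 7 genes with an optimal peak, against 30.9% of all genes with one, a count near the background. The 8 genes with a summit in the region were the same in both replicates: Fos, Fosb, Jun, Junb, Jund, Egr1, Ier2 and Zfp36. Some lay close to the limit of 20000, with Jun at rank 19720 in replicate 1, Fosb at 16070 and 18597 in replicates 1 and 2, and Zfp36 at 17778 in replicate 2. With the strongest 8000 peaks of each replicate the count was 4 of 10, with no share of all genes given at that limit. A summit in the region in both replicates was found for 2.94% of all genes and 4.08% of those of up to 15 kb. For 6 of the 8 genes, all but Jund and Zfp36, these summits were nearest to the gene's own 5′ end among protein-coding genes. The strongest summit in the region was not at the same place in both replicates at every gene. It lay 1218 and 47 bp past the end of Ier2 in replicates 1 and 2, and 1898 and 357 bp past that of Fosb.

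**Figure D3:**
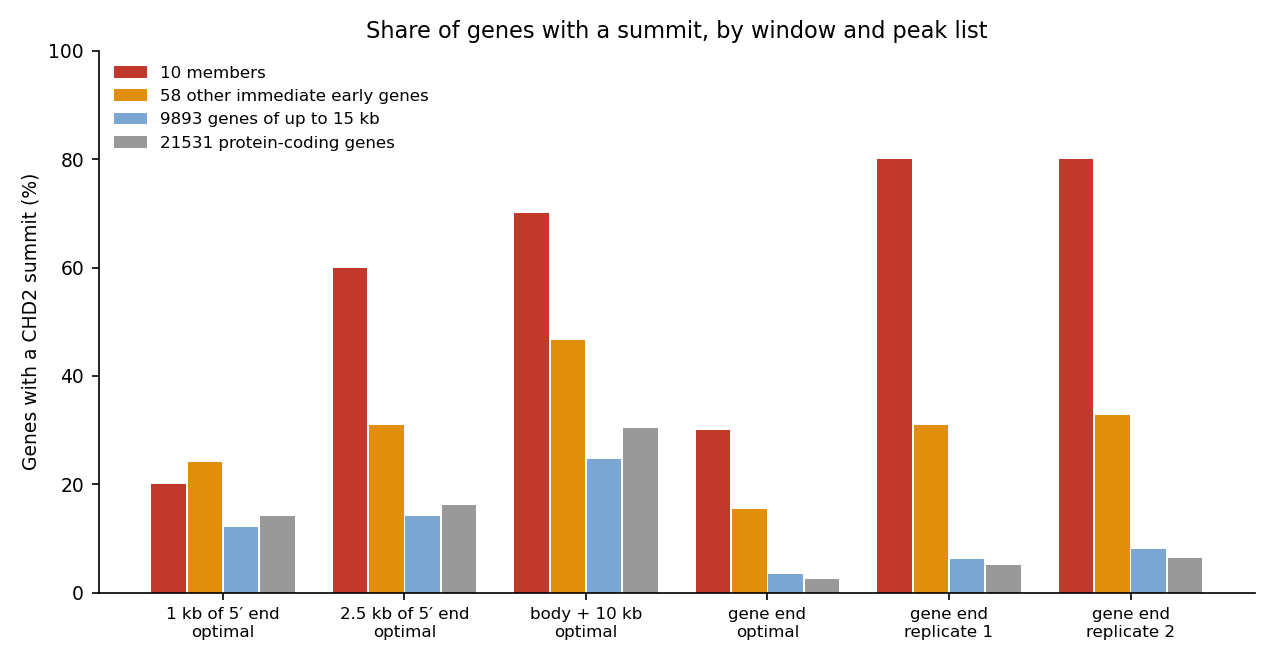
Share of genes with a CHD2 summit (%), by window and list, for the 10 members, 58 other immediate early genes, 9893 genes of up to 15 kb and all 21531 protein-coding genes. The 4 groups are closest within 1 kb of the 5′ end, where 2 of the 10 members have an optimal summit, and the members reach 80% at the gene end in each replicate.

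Per length of DNA, the 2 kb past the gene's end held more summits than any other place at these genes. In the optimal list that stretch held 7 of the 14 summits, or 35.0 per 100 kb, against 1.44 over all genes and 2.09 over genes of up to 15 kb. Within 1 kb of the 5′ end the density was 10 per 100 kb, against 7.87 over all genes. In the strongest 20000 peaks, the density past the end was 65.0 per 100 kb in replicate 1, against 2.68 over all genes, and 55.0 in replicate 2, against 3.72. Within 1 kb of the 5′ end it was 30.0 in each replicate, also above all genes, at 12.2 in replicate 1 and 13.7 in replicate 2. In the pooled list the density past the end was 70.0 at the 10 genes and 15.5 at the 58 other immediate early genes, against 3.35 over all genes. The 58 were densest within 1 kb of the 5′ end (24.1). Between 2 and 10 kb past the end, 80 kb over the 10 genes, there was no optimal summit. The density there was 0.986 per 100 kb over all genes and 1.10 over genes of up to 15 kb, so 80 kb is too short to show a lack. Whether overlapping optimal peaks, of which there were 2 pairs here, stand for 1 site or more was not tested.

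**Figure D4:**
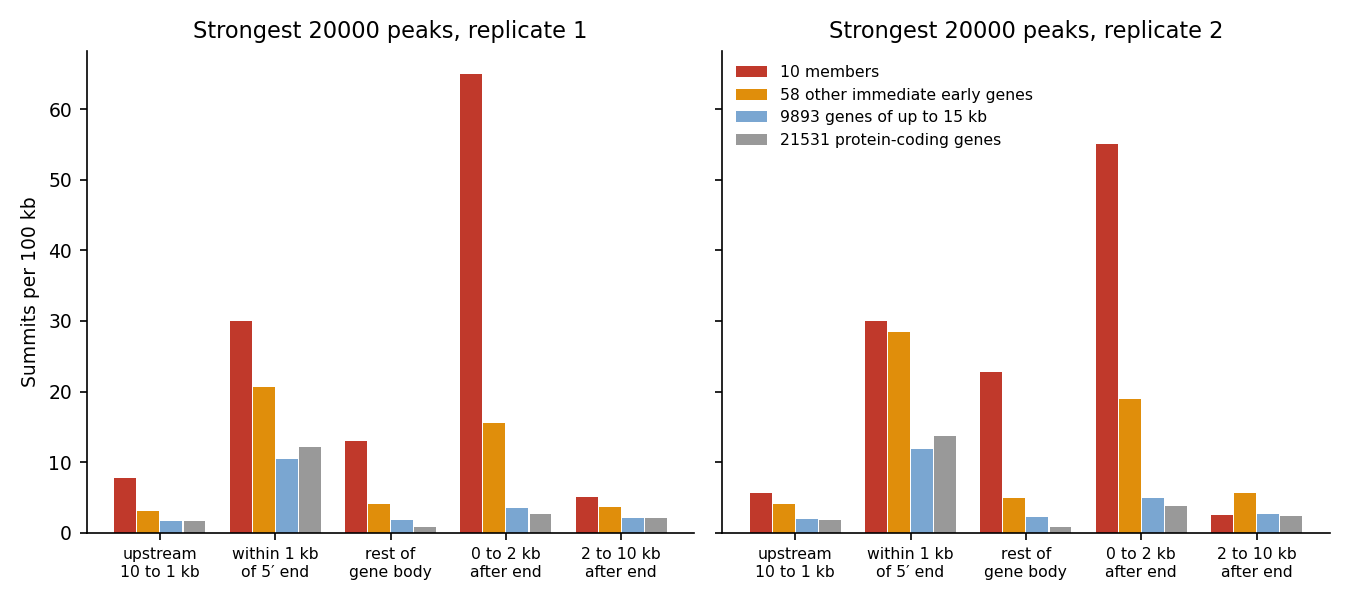
CHD2 summits per 100 kb among the strongest 20000 peaks of replicate 1 (left) and replicate 2 (right), by place along the gene, for the same 4 groups of genes. In both replicates the highest bar is that of the 10 members in the 2 kb after the gene end, at 65.0 and 55.0 per 100 kb.

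The RefSeq promoter table held 8 of the 10 genes (not Egr1 and Ier2), each as 250 bases before the start and 50 after it, and 10 words were searched in it on both strands as exact matches. The CArG box, the binding site of serum response factor, is CC, then 6 bases of A or T, then GG. Within these windows it was found in Zfp36 alone of the 8, from −58 to −49, and in 1.55% of 17492 promoters. The Zfp36 match overlaps one of the Sp/KLF word. Sites more than 250 bases upstream were not searched. The EGR word GCGGGGGCG was in Zfp36 and Fosb, and in 3.85% of all promoters. None of the 8 held the CRE TGACGTCA (2.33% of all promoters), the AP-1 words TGACTCA or TGAGTCA (4.56%), the EGR word GCGTGGGCG (0.835%), the ETS word CCGGAAGT (5.28%) or the YY1 word (0.972%). The NF-Y word CCAAT was in Jun, Junb, Ier3 and Atf3 (39.2% of all promoters), and the Sp/KLF word GGGCGG in 6 of the 8 (46.3%). TATAAA was in Fos, from −33 to −28, and in Junb, from 0 to 5, at the annotated start itself (13.3% of all promoters). GC content was above the median of all promoters (56.3%) in 6 of the 8, with 46.7% at Jund and 68.3% at Fosb as the extremes. Zfp36 and Ier3, which had the optimal promoter summits, had 63.7% and 54.0% GC. The genes of the 8 without one ran from 46.7% (Jund) to 68.3% (Fosb), with Fos at 58.7%.

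The separate mm9 list of 4613 peaks, set against GENCODE M1, held peaks at 4 of the 10 genes in the gene body or within 10 kb, against 20.8% of 22380 genes. Atf3 had one at −1686 (signal 85.1), Zfp36 one at −163 (48.9), Egr1 a pair at 160 and 406 bp past the end (50.03 and 50.28), and Ier2 a pair at 736 and 45 bp past the end (32.9 and 32.7). These are the 4 genes with the strongest pooled peaks on mm10. The Ier2 peaks ranked 4561 and 4613, at and near the bottom of the list. Within 100 bp of these 6 summits, an AP-1 word lay at the Egr1 summit farther from the gene, and in 3.01% of all mm9 summit windows. The word GCGGGGGCG lay at the Zfp36 summit, and in 1.17% of the windows, and CCAAT at the nearer Egr1 summit, and in 47.2%.

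Of 58 other immediate early genes, 27 had an optimal summit in the gene body or within 10 kb (46.6%), and 14 within 1 kb of the 5′ end (24.1%). Over all protein-coding genes these shares were 30.4% and 14.1%. The strongest at a promoter were at Per1 (82.1), a circadian repressor that is also induced by signals, Klf10 (74.998), a TGF-beta-induced repressor, and Rhob (64.1), a small GTPase. The strongest in the wider window was at Srf (122), the gene for serum response factor itself, and Arc and Bhlhe40 were among those without one. In the region at the gene's end, 12 of the 58 (20.7%) had a summit in both replicates, compared with 8 of the 10 genes above. Among 29 genes of the upstream pathway, which include Srf, 16 had an optimal summit in the wider window (55.2%) and 9 within 1 kb of the 5′ end (31.0%). Their strongest promoter peaks were at Mrtfb (194), a coactivator of serum response factor, Map2k2 (108), the MEK2 kinase that activates ERK, and Crtc1 (77.1), a CREB coactivator, while Atf1 and Braf had none in the wider window. Of the 29, 1 (Srf) had a summit at the gene's end in both replicates. The 29 genes are up to 214345 bp long, so the wider window can cover far more DNA than at the 10 genes. Some of the summits counted in it lay nearest to another gene's 5′ end. The difference between these lists and the 10 genes was not tested.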

How the data were processed

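The values came from deposited narrowPeak-style lists of CHD2 ChIP-seq in 2 biological replicates of ES-E14. Peak signal is as deposited, in the caller's own scale, with no normalization given. The deposited −log10 q-value and the deposited score of the optimal and conservative lists were read or skipped but entered no result. Those lists came from the irreproducible discovery rate procedure, per the deposited descriptions. Which caller, aligner and filters were used is not given in the sources used here, and how a control was weighed or a list limited can shift every signal and count. The depth per sample is unknown, so no interval is given.

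Summits were taken from the deposited offset and ranked by signal within a list, with Python 3.11.15, numpy 2.4.6 and pandas 2.3.3. Genes were the 21900 protein-coding genes of the RefSeq table of GRCm38.p6. Strand came from the RefSeq promoter table (17492 genes) or, by symbol or synonym, from GENCODE M1 (4039), and was found for 98.3%. The 5′ end is the outer end of the gene, so internal starts are missed. The mm9 list was set only against GENCODE M1 and its genome, and no coordinate was converted. An overlap was 1 bp or more. Sequences are RefSeq's on GRCm38.p6, or the mm9 genome's.

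The members and lists were chosen with earlier results of these data known. Named were all 10 members and, of each other list, the 3 genes with the strongest optimal peak within 1 kb, the 3 in the wider window and the first 2 by alphabet without one. Also named were genes whose 5′ end was nearer to a summit than the member's. Prdx2 and the region at the gene's end were chosen after positions were seen. Counting and offsets were tested on simulated data. Alternatives were other lists, windows and each replicate alone.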

Additional observations from a re-analysis of the deposited data

How the results depend on the processing

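The count of members with an optimal summit in the gene body or within 10 kb (7) became 4 in the optimal peaks of above-median signal, 4 in the mm9 list and 2 in the gene body alone, and was 9 to 10 with either replicate left out. The count within 1 kb of the 5′ end (2) became 6 in the strongest 20000 pooled peaks. It was 1 among the optimal peaks of above-median signal and 1 in the mm9 list, the latter against 9.96% of 22380 genes. A window of 2.5 kb gave 6 and one of 5 kb gave 7, and leaving out either replicate gave 4 to 5. Among other immediate early genes, 27 became 47 in the pooled list and 9 in the gene body alone, and was 42 to 44 with either replicate left out. The 9 members with a summit in both replicates became 4 when summits had to lie within 100 bp. The median rank of 4844.5 was 3613 to 4106 with either replicate left out. The added count at the gene's end (3) became 7 in the pooled list and was 8 with either replicate left out. The 8 found there in both replicates became 4 with the strongest 8000 peaks of each, with no share of all genes given at that limit. Leaving out a replicate also replaces the optimal list by the other's strongest 20000 peaks, a longer list. The cause of the other changes was not tested.

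The lists have no depth and no control here, so a member without a peak is only not listed. With 2 replicates the spread between cultures is poorly known, and Ier3 rested on replicate 1 and the inner Jund peak on replicate 2.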
